A study of Mus musculus with 12 samples.

Results

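The inflammasome and pyroptosis genes described here are 8: the sensors Nlrp3, Aim2, Naip5 and Mefv, the adaptor Pycard, the caspases Casp1 and Casp4, and the gasdermin Gsdmd. They were taken by name from the 19549 features of the count files, and each of the 8 was found as a feature of its own rather than inside a joined name. All 8 were among the 10421 features kept by the filter on low counts. Mefv reached that filter only through IFNG libraries, so a difference from IL4 was built into its inclusion.

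Inflammasomes are cytosolic complexes that turn the sensing of microbes or damage into inflammatory cell death. A sensor recruits the adaptor ASC, the product of Pycard, which in turn gathers and activates caspase 1. Caspase 1 matures interleukin 1 beta and interleukin 18 and cuts gasdermin D, whose freed end opens pores in the plasma membrane, while caspase 11, the product of Casp4, cuts gasdermin D after binding cytosolic lipopolysaccharide. In macrophages this death is called pyroptosis, and the amounts of sensor and caspase are known to depend on earlier priming of the cell.

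The cells were bone marrow-derived macrophages from naïve females of FVB, an inbred mouse strain, exposed for 4 h to IFNG (interferon gamma, 200 units/mL) or to IL4 (interleukin 4, 40 ng/mL). From each polarization about 10% of the cells gave total mRNA, and the lysate of the rest was spread on a 5 to 50% sucrose gradient, from which mRNA carrying more than 3 ribosomes was pooled as polysome-associated mRNA. This gave 4 groups of 3 libraries. Neither unexposed cells nor an inflammasome trigger was included, hence every difference is relative to IL4, and no cleavage, secretion or death was measured. Whether the replicates are separate animals or cultures is not stated in the labels, and the p-values thus cover only the spread among these 12 libraries, possibly technical.

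Total counts ran from 2563955 to 22014162 per library, and 3 counts were worth 0.184 to 1.13 CPM (counts per 1000000 counts of the scaled library size). The leucyl-tRNA synthetase gene Lars2 took 1.78% to 29.3% of counts on IFNG polysomes and 5.15% to 18.1% on IL4 polysomes, against 0.341% to 2.00% in total mRNA. All 7 listed macrophage markers passed the filter, and they summed to 11058 to 20244 CPM with IFNG and 7288 to 12912 CPM with IL4 in total mRNA, and to 9930 to 15882 and 7427 to 8074 CPM on polysomes. The 9 neutrophil markers summed to 48.0 to 56.7 CPM in the IFNG total libraries and 13.0 to 56.8 CPM in the IL4 total libraries. The 7 dendritic cell markers summed to 8.43 to 26.9 CPM with IFNG and 0.552 to 1.67 CPM with IL4 in total mRNA, with Flt3 at 0 counts. On polysomes they summed to 17.8 to 44.7 CPM with IFNG and 0.681 to 1.42 CPM with IL4. Of these markers 2 were tested, and both were called higher with IFNG in each fraction, beside 7.08% and 7.54% of all tested features. The 6 T and NK cell markers summed to 3.54 to 6.98 CPM with IFNG and 1.27 to 1.89 CPM with IL4 in total mRNA, with Cd3e, Cd3g, Cd8a and Ncr1 at 0 counts. The part of these cells in the differences was not tested. In bulk libraries, fewer cells expressing a gene and less of its mRNA per cell cannot be told apart. Transcript lengths were not used, so levels are compared within a gene and never between genes.

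The sequences before the start sites of the 4 genes that were higher with IFNG in total mRNA are shown first, because they are the members called higher there. RefSeq windows (GRCm38.p6, the assembly that mm10 stands for, of strain C57BL/6J and not FVB) were found for 7 of the 8 members, 9 windows in all. The Aim2 window and that of the downstream Nlrp3 start lie inside the spans RefSeq gives for these genes. Each line gives the 250 bases before a start site, 5′ to 3′ on the gene's strand, with matches to the searched motifs in capitals.

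Casp1, chr9:5298267-5298516, plus strand: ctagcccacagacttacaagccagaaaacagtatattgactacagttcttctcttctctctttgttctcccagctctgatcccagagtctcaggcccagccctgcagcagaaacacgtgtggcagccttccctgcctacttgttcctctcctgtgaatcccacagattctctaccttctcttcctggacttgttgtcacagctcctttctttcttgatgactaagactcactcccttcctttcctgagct
Casp4, chr9:5308599-5308848, plus strand: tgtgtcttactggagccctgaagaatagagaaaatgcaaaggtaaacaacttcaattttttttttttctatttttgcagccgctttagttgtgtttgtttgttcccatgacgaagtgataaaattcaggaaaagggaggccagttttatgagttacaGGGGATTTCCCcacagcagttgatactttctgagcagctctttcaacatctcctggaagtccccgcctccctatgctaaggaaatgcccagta
Nlrp3 upstream start, chr11:59541319-59541568, plus strand: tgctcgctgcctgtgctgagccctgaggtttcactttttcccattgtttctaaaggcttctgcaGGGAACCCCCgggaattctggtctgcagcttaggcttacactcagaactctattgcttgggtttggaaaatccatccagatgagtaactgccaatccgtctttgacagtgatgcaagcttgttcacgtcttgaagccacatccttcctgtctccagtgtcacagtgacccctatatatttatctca
Nlrp3 downstream start, chr11:59542436-59542685, plus strand: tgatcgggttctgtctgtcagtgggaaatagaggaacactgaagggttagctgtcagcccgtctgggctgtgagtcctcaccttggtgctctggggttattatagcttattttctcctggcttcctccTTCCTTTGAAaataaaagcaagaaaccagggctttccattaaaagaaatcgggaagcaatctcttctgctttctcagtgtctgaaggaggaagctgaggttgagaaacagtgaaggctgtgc
Aim2, chr1:173420354-173420603, plus strand: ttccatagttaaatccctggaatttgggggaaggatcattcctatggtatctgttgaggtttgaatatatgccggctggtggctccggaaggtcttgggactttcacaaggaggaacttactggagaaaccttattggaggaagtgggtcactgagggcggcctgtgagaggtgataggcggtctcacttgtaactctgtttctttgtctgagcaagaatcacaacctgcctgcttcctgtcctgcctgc

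In Casp4 the capitals are a pair of overlapping matches to the NF-kB consensus, the first starting 93 bases before the start site, and a second annotated Casp4 start 11 bases downstream has the same matches. In Nlrp3 they are an NF-kB match 186 bases before the upstream start and a STAT6-type match (TTC and GAA with 4 bases between) 122 bases before the downstream start. NF-kB matches occurred in 3.90% and STAT6-type matches in 5.85% of all 32851 RefSeq windows of this length. The interferon response core, GAAA repeated with 2 bases between, was in 0 of the 9 member windows, against 2.98% of all windows. Each of these motifs was searched on both strands. No match says only that these letters are not in these 250 bases, and a match is neither a bound site nor a cause.

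The comparison in total mRNA asks which of the genes differed in amount between the polarized cells. With IFNG both inflammatory caspases and the sensors Nlrp3 and Aim2 were higher, by 3.17-fold to 7.79-fold. Gasdermin D, Naip5 and Mefv had higher means with IFNG and did not pass the test, and the adaptor Pycard did not pass either, with a lower mean. Of the 8 genes 4 were called higher and 0 lower (edgeR, adjusted p under 0.05 over all features; 7 of 8 at an unadjusted p under 0.05, as were 2236 of 10421 features), beside 7.08% of all tested features called higher and 3.93% called lower. The median log2 fold change of the 8 was 1.83, and 1.67 without Mefv, beside 0.04 over all features.

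**Figure D1:**
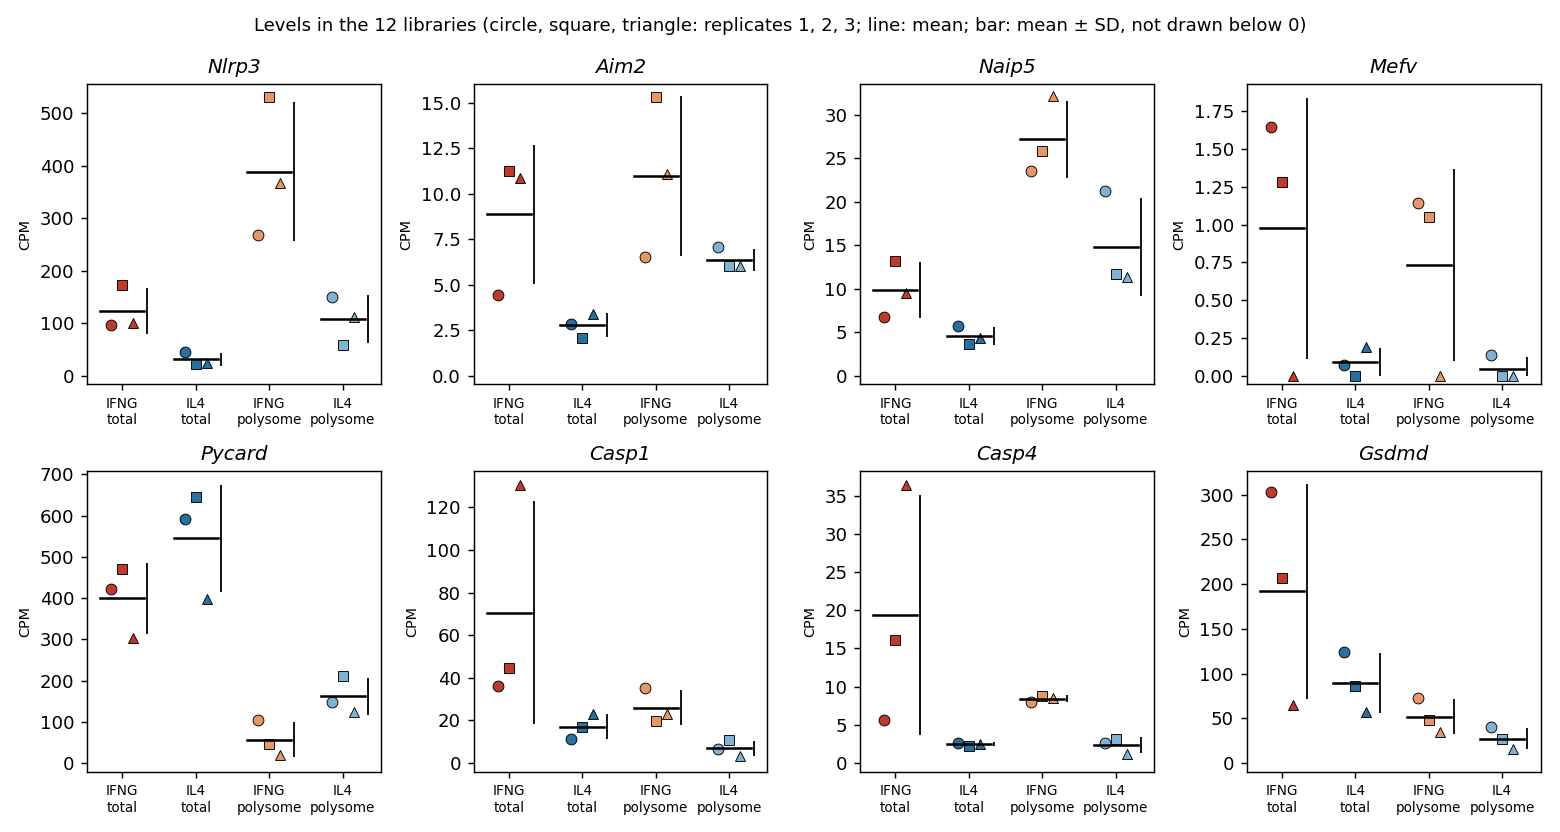
CPM (vertical axis, linear) of each of the 8 genes in the 12 libraries, by group; points are libraries, lines the group mean and bars the SD. Casp1 and Casp4 in total mRNA stand highest in IFNG replicate 3, and Mefv has no count in that replicate in either fraction.

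Nlrp3 (chromosome 11, 59541569 to 59566955) encodes a sensor of membrane and ion disturbance that needs priming. It measured 96.7, 173 and 99.8 CPM in IFNG total replicates 1, 2 and 3 and 45.8, 23.0 and 23.8 CPM in the IL4 total replicates. All IFNG libraries lay above all IL4 libraries, with replicate 2 the highest of the IFNG group and replicate 1 the highest of the IL4 group. The difference was 3.98-fold (log2 fold change 1.99, SE 0.46, adjusted p = 0.00502).

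Aim2 (chromosome 1, 173349547 to 173466040), which senses DNA in the cytosol, measured 4.44, 11.3 and 10.9 CPM with IFNG and 2.83, 2.08 and 3.42 CPM with IL4. The groups did not overlap, although IFNG replicate 1 was close to the IL4 libraries. The fold was 3.17 (log2 fold change 1.67, SE 0.52, adjusted p = 0.0391). This call was lost in 8 of the 19 other settings that gave a value. Among them were the fits without IFNG total replicate 2 (adjusted p = 0.186) or 3 (0.1001), without IL4 total replicate 1 (0.115), 2 (0.182) or 3 (0.0729), and without IL4 polysome replicate 2 (0.0508). RefSeq places Cadm3 inside the Aim2 span, and Cadm3 had 6 counts over the 12 libraries.

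Naip5 (chromosome 13, 100211735 to 100250930), which binds bacterial flagellin and passes the signal to NLRC4, measured 6.72, 13.1 and 9.50 CPM with IFNG and 5.66, 3.62 and 4.36 CPM with IL4. The groups did not overlap, yet the test over all features was not passed (log2 fold change 1.10, SE 0.44, adjusted p = 0.128). Naip5 has close copies in Naip1, Naip2 and the joined feature Naip6 and Naip7, so its reads are uncertain.

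Mefv (chromosome 16, 3706974 to 3718211) encodes pyrin, a sensor of bacterial toxins that switch off RhoA. It had 26, 11 and 0 counts in IFNG total replicates 1, 2 and 3 and 1, 0 and 3 counts in the IL4 total replicates, or 1.65, 1.28 and 0 CPM against 0.0725, 0 and 0.190 CPM. Only replicates 1 and 2 with IFNG stood above the IL4 libraries. The 37 IFNG counts against 4 gave a depth-scaled ratio of 11.8, with a 95% counting interval of 4.24 to 45.6. The test was not passed (log2 fold change 3.31, SE 1.35, adjusted p = 0.112). It was passed without IFNG total replicate 3 (adjusted p = 0.0347), but that fit leaves out the IFNG total library with 0 counts. Mefv also reached the filter only through IFNG libraries, so this pass is no support for a difference. Neutrophils are known for Mefv expression, and the 9 neutrophil markers summed to 48.8, 48.0 and 56.7 CPM in these IFNG libraries and 56.8, 24.0 and 13.0 CPM in the IL4 libraries, with none at 0 throughout. Csf3r had the most counts of the 9 in each of these libraries, with 571, 323 and 285 in IFNG replicates 1, 2 and 3. With IL4 it had 733, 318 and 186 counts. In the IFNG replicates S100a9 had 23, 12 and 179 counts, S100a8 120, 45 and 168, and Camp 44, 20 and 15. The part of neutrophils in the Mefv difference was not tested.

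Pycard (chromosome 7, 127991373 to 127993867), the adaptor that joins most sensors to caspase 1, measured 423, 471 and 304 CPM with IFNG and 591, 646 and 398 CPM with IL4. The ranges overlapped, with replicate 3 the lowest of each group. The difference did not pass (log2 fold change -0.45, SE 0.48, adjusted p = 0.715).

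Casp1 (chromosome 9, 5298517 to 5307281) and Casp4 (chromosome 9, 5308849 to 5336791) lie next to each other, 1567 bases apart. Casp1 measured 36.2, 44.5 and 131 CPM with IFNG and 11.3, 16.7 and 23.0 CPM with IL4. Casp4 measured 5.58, 16.05 and 36.4 CPM with IFNG and 2.68, 2.21 and 2.53 CPM with IL4. For both genes IFNG replicate 3 was far above the other libraries, and no IFNG library reached down to the IL4 range.

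Casp1 was 4.14-fold higher with IFNG (log2 fold change 2.05, SE 0.51, adjusted p = 0.00903). Without IFNG total replicate 3 the log2 fold change was 1.21 and the call was lost (adjusted p = 0.1001), and without IL4 total replicate 1 it was lost as well (0.0597). Casp4 had the largest fold of the 4 called members, 7.79 (log2 fold change 2.96, SE 0.59, adjusted p = 0.00138). Without IFNG total replicate 3 its log2 fold change was 2.08 and the call stayed (adjusted p = 0.0165).

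Gsdmd (chromosome 15, 75862144 to 75867408) measured 303, 207 and 65.0 CPM with IFNG and 124, 85.6 and 57.6 CPM with IL4. In both groups replicate 1 was the highest and replicate 3 the lowest, and IFNG replicate 3 lay among the IL4 libraries. The log2 fold change of 1.10 (SE 0.50) did not pass (adjusted p = 0.196), but it did without IFNG total replicate 3 (adjusted p = 0.0351). Between same-numbered IFNG and IL4 libraries Gsdmd was higher with IFNG in 3 of 3 pairs, and the test with that number as a block gave an adjusted p of 0.0929. Within the same library Casp1 and Casp4 thus stood at their highest and Gsdmd at its lowest among the IFNG total libraries.

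**Figure D2:**
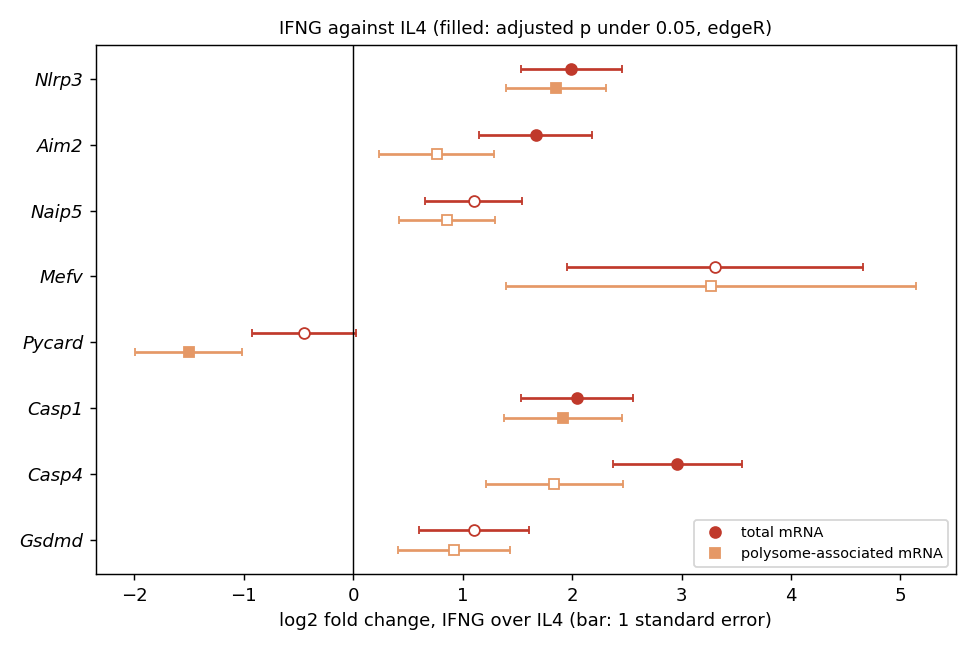
Log2 fold change of IFNG over IL4 (horizontal axis) for the 8 genes in total mRNA (circles) and in polysome-associated mRNA (squares), with 1 standard error; filled symbols passed the edgeR test. Pycard lies at -0.45 in total mRNA and -1.50 on polysomes, and the other 7 estimates are above 0 in both fractions.

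On polysomes the question is how these genes differed in the mRNA loaded with ribosomes. Nlrp3 and Casp1 were higher with IFNG, by 3.61-fold and 3.78-fold, and Pycard was 2.83-fold lower. Of the 8 genes 2 were called higher and 1 lower, beside 7.54% of all tested features called higher and 6.58% called lower. The median log2 fold change of the 8 was 1.38, and 0.92 without Mefv, beside -0.06 over all features.

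Nlrp3 measured 268, 531 and 368 CPM in the IFNG polysome replicates 1, 2 and 3 and 151, 59.1 and 112 CPM in those of IL4. The groups did not overlap (log2 fold change 1.85, SE 0.46, adjusted p = 0.00847), but leaving out IL4 polysome replicate 2, the lowest library, ended the call (adjusted p = 0.0668). Casp1 measured 35.3, 19.8 and 22.9 CPM with IFNG and 6.68, 10.6 and 3.40 CPM with IL4, where 3.40 CPM stands for 9 counts. Here IFNG replicate 3 was no longer the highest, and the groups were again apart (log2 fold change 1.92, SE 0.54, adjusted p = 0.0187). The Casp1 call was lost without IL4 polysome replicate 1 (adjusted p = 0.0618) or 3 (0.102).

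Casp4 measured 7.93, 8.83 and 8.50 CPM with IFNG, a narrow range, and 2.59, 3.19 and 1.13 CPM with IL4, from 19, 9 and 3 counts. The groups did not overlap, and the fold was 3.57 (log2 fold change 1.84, SE 0.63). It missed the threshold (adjusted p = 0.0518), and passed with the replicate number as a block (adjusted p = 0.0477) and in 10 of 19 other settings in all.

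Pycard measured 104, 46.0 and 19.9 CPM with IFNG and 149, 211 and 124 CPM with IL4 on polysomes. Every IFNG library was below every IL4 library, and the IFNG values spanned a wide range while those of IL4 were closer together. The log2 fold change was -1.50 (SE 0.49, adjusted p = 0.0428; 0.00905 with the replicate number as a block). The call was lost in 11 of 20 other settings, with adjusted p from 0.00225 to 0.189. It was lost without IFNG polysome replicate 2 (adjusted p = 0.152) or 3 (0.189), and without IL4 polysome replicate 1 (0.0699), 2 (0.172) or 3 (0.0637). It was also lost, just past the threshold, without IFNG total replicate 1 (0.0530) or 2 (0.0537) and without IL4 total replicate 1 (0.0521) or 2 (0.0561), and the cause was not tested. Without IFNG polysome replicate 1 the log2 fold change was -2.28. The Lars2 share in IFNG polysome replicates 1, 2 and 3 was 1.78%, 12.8% and 29.3%, so Pycard was lowest where that share was highest. In the IL4 polysome libraries the shares were 5.15%, 11.98% and 18.1%, and Pycard was lowest in replicate 3 and highest in replicate 2. Pycard was also lowest in replicate 3 of each total mRNA group, where Lars2 took 2.00% with IFNG and 1.47% with IL4. This order was not particular to Pycard. Gsdmd too was lowest in replicate 3 of each of the 4 groups, at 65.0 and 57.6 CPM in IFNG and IL4 total mRNA and 34.7 and 15.5 CPM on polysomes. Some members went the other way in single groups, such as Casp1 and Casp4, highest in IFNG total replicate 3 (131 and 36.4 CPM). With Lars2 taken out of the library sizes Pycard had a log2 fold change of -1.40 (adjusted p = 0.0603). The part of the Lars2 reads in these orders and in the Pycard difference was not tested further.

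The remaining members did not pass on polysomes. Aim2 measured 6.52 to 15.3 CPM with IFNG and 6.02 to 7.08 CPM with IL4, so the groups overlapped (log2 fold change 0.76, SE 0.53, adjusted p = 0.379). Gsdmd measured 34.7 to 72.6 CPM against 15.5 to 39.8 CPM, also with an overlap (log2 fold change 0.92, SE 0.51, adjusted p = 0.256), and was higher with IFNG in 3 of 3 same-numbered pairs (adjusted p = 0.0794 with the block). Naip5 measured 23.5 to 32.1 CPM against 11.3 to 21.3 CPM without an overlap (log2 fold change 0.86, SE 0.44, adjusted p = 0.218). Mefv had 13, 5 and 0 counts with IFNG and 1, 0 and 0 with IL4, a ratio of 12.3 with a 95% counting interval of 1.93 to 510.5 (adjusted p = 0.240). On polysomes Naip5 and Casp4 joined Nlrp3 and Casp1 among the 4 members whose IFNG polysome libraries all lay above those of IL4, beside 15.2% of all features, and Pycard alone did so below them, beside 16.0%. In total mRNA 5 members did so, beside 13.4% of all features.

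Whether the IFNG difference on polysomes departed from that in total mRNA was tested by the interaction term. None of the 8 genes was called by edgeR, 0 had an unadjusted p under 0.05, and DESeq2 and limma called 0 as well. Over all features edgeR called 0%, 176 of 10421 had an unadjusted p under 0.05, and DESeq2 and limma each called 1 lower. With no filter on low counts edgeR called 1 feature higher and 4 lower, none of them a member. The estimates that were farthest from 0 were those of Casp4 at -1.12 (SE 0.84), Pycard at -1.05 (SE 0.68) and Aim2 at -0.90 (SE 0.73). All 8 estimates were negative, with a median of -0.21 beside -0.10 over all features. Those of Casp1, Nlrp3, Naip5, Gsdmd and Mefv lay between -0.24 and -0.03 and changed sign in some settings. Standard errors of this size leave room for differences in either direction that this design did not detect.

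The contrast of fractions, taken as the mean of both polarizations, asks which messages were over- or under-represented among those with more than 3 ribosomes. The sensors Nlrp3 and Naip5 were higher on polysomes, by 3.32-fold and 3.02-fold. Casp1, Gsdmd and Pycard were lower on polysomes, by 2.58-fold, 3.45-fold and 4.86-fold. Of the 8 genes 2 were called higher and 3 lower, beside 22.6% and 25.7% of all tested features. These calls held in each of the 20 other settings. A ratio above 1 means a larger share of the polysome library than of the total library, since each library is scaled to its own total. The ratios set libraries of the same number side by side only for display, since same-numbered total and polysome libraries did not deviate together in every pair, and the test does not pair them.

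**Figure D3:**
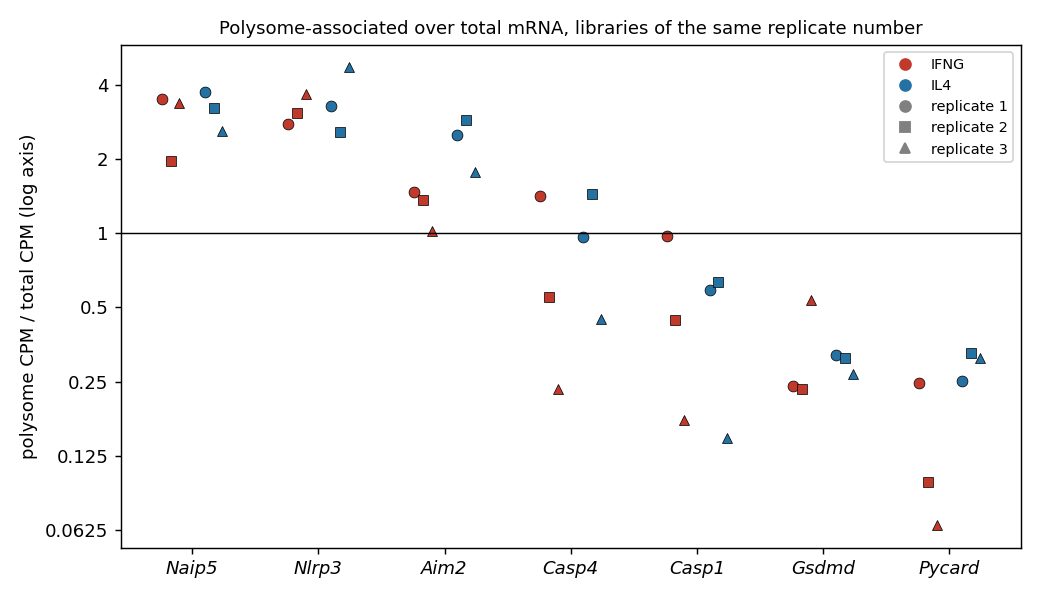
Ratio of polysome CPM to total CPM (vertical axis, log scale) for libraries of the same polarization and replicate number, for 7 genes; Mefv is left out because of its zero counts. Nlrp3, Naip5 and Aim2 lie above 1 in all 6 ratios, Gsdmd, Casp1 and Pycard below 1 in all 6, and Casp4 on both sides.

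For Nlrp3 the ratio of polysome to total CPM in replicates 1, 2 and 3 was 2.77, 3.07 and 3.69 with IFNG and 3.29, 2.57 and 4.71 with IL4, a mean log2 difference of 1.73 (SE 0.32, adjusted p = 0.00023). For Naip5 it was 3.50, 1.97 and 3.38 with IFNG and 3.76, 3.23 and 2.60 with IL4, a mean log2 difference of 1.59 (SE 0.32, adjusted p = 0.00037). Both polysome groups lay above their total groups without an overlap for these genes, as for 17.4% of all features with IFNG and 23.4% with IL4. Aim2 had ratios of 1.02 to 1.47 with IFNG and 1.77 to 2.89 with IL4 and did not pass (adjusted p = 0.0927).

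Pycard had the lowest ratios, 0.246, 0.0978 and 0.0655 with IFNG and 0.252, 0.327 and 0.313 with IL4, a mean log2 difference of -2.28 (SE 0.35, adjusted p = 4.08e-05). Gsdmd ratios were 0.240, 0.233 and 0.534 with IFNG and 0.320, 0.310 and 0.269 with IL4, a mean log2 difference of -1.79 (SE 0.36, adjusted p = 0.000471). Casp1 ratios were 0.976, 0.444 and 0.175 with IFNG and 0.590, 0.635 and 0.148 with IL4, a mean log2 difference of -1.37 (SE 0.37, adjusted p = 0.00416). Casp4 ratios spread from 0.233 to 1.44 and did not pass (adjusted p = 0.211).

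The wider pathway was described from lists of genes that were no members, 82 in all with 63 tested. In total mRNA 26 of the 63 were higher with IFNG and 2 lower, and on polysomes 23 and 2. Over all tested features the shares were 7.08% higher and 3.93% lower in total mRNA, and 7.54% and 6.58% on polysomes. The list counts that follow are to be read beside these shares. Of the 63, 6 reached the filter on low counts only through IFNG libraries, so that a difference was built into their inclusion. All 8 tested genes of the PYHIN family, the DNA-binding relatives of Aim2, were higher with IFNG in both fractions, with a median log2 fold change of 4.04 in total mRNA. Ifi205 and Pydc3 are 2 of the genes that reached the filter only through IFNG, and without them 6 of 6 were higher in each fraction, with a median of 3.82 in total mRNA. Pyhin1 measured 57.0 ± 34.3 against 1.63 ± 0.128 CPM and Mndal 21.7 ± 16.1 against 1.20 ± 0.588 CPM (mean ± SD, n = 3, total mRNA). The PYHIN genes are close copies in 1 cluster, so their reads are uncertain.

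Of the 9 other sensors and nucleators 6 were tested, and in total mRNA 0 were higher and 1 was lower with IFNG by edgeR (2 at an unadjusted p under 0.05; 0 higher and 1 lower by DESeq2 too). The lower gene was Nlrp10, at 0.206 ± 0.0700 against 2.53 ± 0.320 CPM, which is under the level set for named genes and was chosen after its values were seen. The NAIP partner Nlrc4 measured 3.07 ± 0.910 against 1.04 ± 0.696 CPM (adjusted p = 0.200, no call). Between the fractions, 5 of the 6 were higher on polysomes and 0 lower, beside 22.6% and 25.7% of all tested features. Over all the lists together 10 of 63 were higher on polysomes and 7 lower. Of the 8 tested PYHIN genes 0 were called higher and 0 lower there. The median log2 fold change of the 6 was 1.51 beside 0.04 over all features. The 5 higher genes were Nlrp1b, Nlrp10, Naip1, Naip2 and the joined Naip6 and Naip7, named because the count is small. The Naip genes among them are the close copies of Naip5, so their reads are uncertain too. Naip2, a sensor of the bacterial secretion apparatus, measured 55.9 ± 14.1 CPM in total mRNA and 137 ± 18.1 CPM on polysomes with IFNG, and 34.1 ± 7.64 and 85.1 ± 20.9 CPM with IL4. Nlrc4, the only tested gene of this list that was not called, had a log2 fold change of 0.92 (adjusted p = 0.137).

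**Figure D4:**
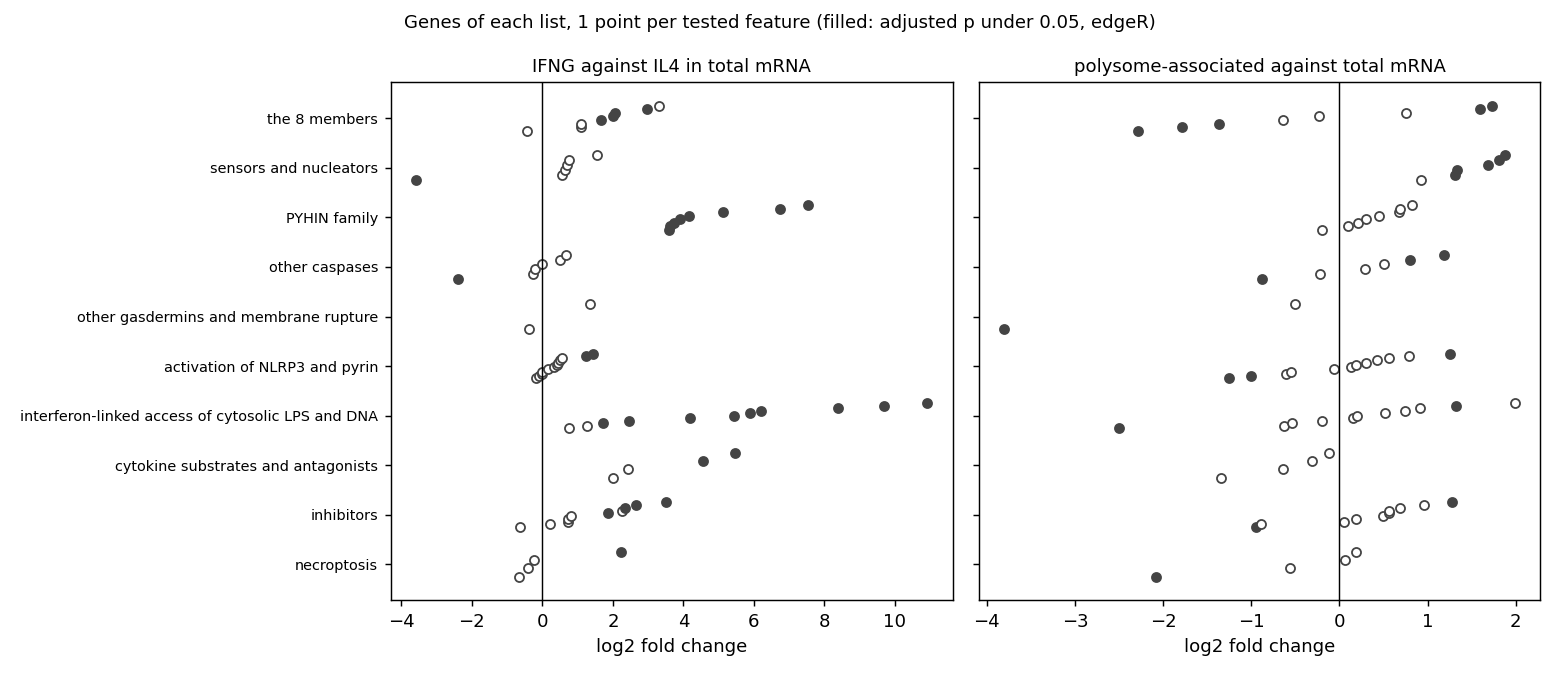
Log2 fold change (horizontal axes) of the 8 members and of each tested gene of the pathway lists, for IFNG against IL4 in total mRNA (left) and polysome-associated against total mRNA (right); filled points passed the edgeR test. All 8 PYHIN points lie right of 0 on the left, and 5 of 6 other sensors are filled and right of 0 on the right.

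Of the genes that bring interferon to bear on cytosolic LPS and DNA, 9 of 11 were higher with IFNG in total mRNA and 8 on polysomes, with a median log2 fold change of 5.42 in total mRNA. Gbp3, Gbp5 and Gbp7 reached the filter only through IFNG libraries, and without them 6 of 8 were higher in total mRNA (median 3.33) and 5 on polysomes. Gbp5, a GTPase that promotes caspase 11 and NLRP3 activation, had 0 counts with IL4 in total mRNA and was at least 390.6-fold higher with IFNG, against a floor of 3 counts over the group. On polysomes it had 1 count with IL4 (ratio 597.7, 95% counting interval 107 to 23633). Gbp2, which coats bacteria in the cytosol, measured 935 ± 238 against 1.13 ± 0.425 CPM. Irf2, a known regulator of Gsdmd transcription, measured 88.1 ± 55.2 against 36.4 ± 6.78 CPM, which missed the threshold (adjusted p = 0.0984).

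Of 7 other caspases 6 were tested, with 0 higher and 1 lower with IFNG in either fraction (edgeR and DESeq2; 1 at an unadjusted p under 0.05). The lower gene was Casp6, an apoptotic caspase, at 4.42 ± 3.07 against 23.3 ± 5.72 CPM (adjusted p = 0.00236). Casp8, which can replace caspase 1 in some inflammasomes, measured 21.2 ± 11.3 against 24.6 ± 13.4 CPM (adjusted p = 0.894).

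Of the other gasdermins and the membrane rupture gene Ninj1, 2 of 9 were tested and 0 were called in either fraction (edgeR and DESeq2; 1 at an unadjusted p under 0.05). Ninj1, which tears the membrane after pores have formed, measured 2509 ± 1461 against 985 ± 443 CPM in total mRNA (adjusted p = 0.190). With the replicate number as a block Ninj1 was called higher with IFNG in total mRNA (log2 fold change 1.23, adjusted p = 0.0306) and on polysomes (1.33, adjusted p = 0.0185). Ninj1 was lower on polysomes than in total mRNA (log2 fold change -3.80, SE 0.47, adjusted p = 4.18e-06), in the same direction as Gsdmd.

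Of the genes that activate NLRP3 and pyrin, 2 of 12 were higher with IFNG in total mRNA, the Toll-like receptor adaptors Myd88 (312 ± 114 against 116 ± 49.4 CPM, adjusted p = 0.0344) and Ticam1 (61.4 ± 19.9 against 26.0 ± 7.995 CPM, adjusted p = 0.0493). On polysomes 0 were called by edgeR (1 by DESeq2, and 1 at an unadjusted p under 0.05). Neither call was made without IFNG total replicate 1 or 2 or without IL4 total replicate 2 or 3, where the list had 0. Nlrp3's binding partner Nek7 did not pass (log2 fold change 0.34, adjusted p = 0.843).

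Antagonists of the end products were among the genes that were higher with IFNG. Of 5 cytokine substrates and antagonists 4 were tested and 2 were higher with IFNG. Il18bp, which traps interleukin 18, measured 159 ± 3.98 against 3.60 ± 1.81 CPM, and Il1rn, the interleukin 1 receptor antagonist, 1322 ± 194 against 55.9 ± 29.8 CPM. The substrates were chosen after their values were seen: Il1b measured 13.8 ± 2.40 against 2.56 ± 2.84 CPM (adjusted p = 0.0725, and 0.00753 with the replicate number as a block), and Il18 7.37 ± 6.96 against 1.82 ± 1.45 CPM (adjusted p = 0.0926). On polysomes Il1b had an adjusted p of 0.114, and 0.0416 with the block.

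Of 10 inhibitors 4 were higher with IFNG in total mRNA and 4 on polysomes. Trim30a, known to restrain NLRP3, measured 193 ± 139 against 17.1 ± 3.52 CPM (adjusted p = 7.94e-05). Cflar, an inhibitor of caspase 8, measured 142 ± 41.3 against 22.6 ± 0.657 CPM (adjusted p = 0.00066). Of 4 necroptosis genes 1 was higher in total mRNA, the pore-forming Mlkl at 36.4 ± 18.6 against 7.72 ± 3.62 CPM (adjusted p = 0.0026). On polysomes Mlkl was higher and the adaptor Fadd lower (log2 fold change -1.68, adjusted p = 0.0108), and the list had 0 lower calls when replicate 3 of either polysome group was left out.

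Across the 12 libraries the members did not share a common profile. Over log2 CPM, Nlrp3 correlated with Naip5 at r = 0.93 and with Aim2 at 0.86, and Casp1 with Casp4 at 0.89, while Pycard correlated with Nlrp3 at -0.80 and with Naip5 at -0.87. The points share libraries, depth and the step between fractions, so these values are descriptive. Among 6979 features of at least 10 CPM, the profiles most like Nlrp3 were those of Akna (r = 0.98) and Nol4l (0.98), and those most like Naip5 were Atp10d (0.98) and Tmem2 (0.98). For Casp1 they were March5 (0.98) and Riok3 (0.97), and for Casp4 Klf6 (0.94) and Gm4951 (0.94). For Gsdmd they were Mag (0.98) and Atg16l1 (0.97), and for Aim2 Aftph (0.94) and Tlr6 (0.94). Pycard stood closest to Rps15 (0.99), a cytosolic ribosomal protein gene, and Mrpl23 (0.99), a mitochondrial ribosomal protein gene. Both were also lowest on IFNG polysomes. Rps15 measured 157 CPM there, against 439 CPM on IL4 polysomes and 986 and 1414 CPM in IFNG and IL4 total mRNA. The few Mefv counts gave the loosest likeness, 0.85 with Btbd9 and 0.85 with Plcg2.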

How the data were processed

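Bone marrow-derived macrophages were profiled in 12 SmartSeq2 libraries, per the labels. Per the file headers, each deposited file gives whole-number read counts by gene symbol and, for 11006 of 19549 features, the authors' TMM-normalized log2 values. HISAT2, HISAT, limma and mm10 stand in the submitters' processing notes. How reads were counted, with which annotation and whether by strand, is not given in the sources used here, so overlapping and antisense genes cannot be told apart, and 830 features join several symbols.

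Counts were fitted in R 4.3.3 with edgeR 4.0.16 (filterByExpr, TMM, robust quasi-likelihood, 1 model of 4 groups), with Benjamini-Hochberg adjustment over 10421 features and a threshold of 0.05. Standard errors are the unshrunken log2 fold change divided by the root of F. CPM are counts per 1000000 on TMM-scaled sizes. Counting intervals are 95% exact intervals and cover counting error only. The data simulated for the total mRNA comparison held 10421 features, 100 of them changed 8-fold and 100 changed 2-fold. Of these, 88% of the 8-fold and 5% of the 2-fold changes were recovered, and 0.0196% of unchanged features were called. In the real comparison 738 features were called higher and 410 lower, more than were changed in the simulation, so its recovery may differ from that here. DESeq2 1.42.0 and limma 3.58.1 (on the authors' log2 values) served as alternatives.

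The members and lists were chosen with earlier results of these data known. Genes named from a list were up to 2 called in total mRNA with the largest change among those of at least 10 CPM in 1 group and no overlap, or the most abundant where none was called. The 2 features most like each member were taken by Pearson correlation of log2 CPM (prior count 2). Naip1, Naip2, Nlrp1b, Nlrp10, Nlrc4, Irf2, Casp8, Nek7, Il1b, Il18, Fadd, Gbp3, Gbp7, Ifi205 and Pydc3 fall outside this rule and were chosen after their values were seen. Same-numbered IFNG and IL4 libraries deviated together over features averaging at least 10 CPM. The r was 0.517, 0.153 and 0.745 for total replicates 1, 2 and 3 and 0.250, 0.153 and 0.352 on polysomes. All were over 0.1, the minimum set for taking the number as a pairing. However, IFNG total replicate 2 deviated more with an IL4 library of another number (r = 0.395), and IFNG polysome replicate 1 nearly as much (0.229). The pairing is thus uncertain, and the results with the number as a block rest on it. Between the fractions r was 0.266, 0.430 and -0.0732 with IFNG and 0.0163, 0.396 and 0.0461 with IL4, so that not every pair was over 0.1 and the number was not taken to pair them. A further motif that was searched is not reported here.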

Additional observations from a re-analysis of the deposited data

How the results depend on the processing

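Of 622 values of single members under the other settings, 551 kept their direction and side of the threshold, 24 lost a call, 12 gained one and 35 changed sign. The number of members called higher in total mRNA fell from 4 to 2 with a filter of at least 10 CPM, which leaves Casp4, Aim2 and Mefv untested, and ran from 2 (without IL4 total replicate 1) to 4 when 1 library was left out. On polysomes the number called higher ran from 1 (without any of the 3 IL4 polysome libraries) to 3, and the number called lower from 0 to 1. The 1 lower call, Pycard, became 0 with Lars2 out of the library sizes and with only the 6 polysome libraries. The cause was not tested.

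The sign changes concern uncalled values. The interaction of Casp1 was 0.073 with the 10 CPM filter, 0.12 with limma and -0.43 to 0.79 over the left-out libraries. That of Gsdmd was 0.040 with the filter, 0.046 with limma and -0.51 to 0.43, that of Nlrp3 0.088 with the filter and -0.54 to 0.35, and that of Naip5 -0.43 to 0.18. That of Mefv was 0.018 without Lars2 and -1.11 to 2.70. Between fractions Mefv was 0.76 with limma and -1.60 to 0.31 over the left-out libraries. Mefv could not be fitted in the 6-library fits of either IFNG comparison or without IFNG total replicate 1.

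With the replicate number as a block, the interaction was 0.017 for Gsdmd and 0.65 for Mefv. A block within each polarization, chosen after seeing the data, gave 0.070 for Casp1 and 0.036 for Gsdmd. Of the calls reported for named genes, the block changed those of Casp4 on polysomes and of Ninj1 and Il1b in both fractions, and no other.

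Over all features, the 410 lower in total mRNA were 237 without IFNG total replicate 2 and 273 without IL4 total replicate 3. On polysomes the 786 higher were 496 and 503 without IL4 polysome replicates 2 and 3. The 686 lower were 355 and 407 without IFNG polysome replicates 2 and 3, and 438 and 351 without IL4 polysome replicates 2 and 3. Changes near 2-fold, and those of genes of few counts such as Mefv, are easily missed at this depth and number of libraries.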
